A study of Rattus norvegicus with 28 samples.

Results

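The Gadd45 family and the cyclin-dependent kinase (CDK) inhibitors were followed in rat skeletal muscle during experimental intensive care. The 8 genes are Gadd45a, Gadd45b, Gadd45g, Cdkn1a, Cdkn1b, Cdkn1c, Cdkn2b and Cdkn2c. They were found by gene symbol in the deposited table, where each has 1 probe set, so that 8 of 26208 probe sets and 8 of 19505 symbols are described. RNA was taken from the proximal part of the gastrocnemius muscle of 28 rats, all female and of the Sprague-Dawley strain, and hybridised to Affymetrix Rat Gene 1.0 ST arrays. The reference group was 5 sham-operated rats under isoflurane, which breathed on their own, were not given the blocker and were killed soon after surgery. The experimental rats were sedated, ventilated mechanically and paralysed with the venom toxin α-cobrotoxin, which blocks acetylcholine receptors at the motor endplate. Their duration groups were 0.25-4d with 13 rats, 5-8d with 4 and 9-14d with 6. Paralysis, ventilation, sedation and days since surgery came together in these rats, and their parts in a change cannot be told apart. The source descriptions of the control samples mention the blocker and the ventilator too, against their titles and the study's methods. The titles were followed, and every change below depends on this. No infection was seen in the animals according to the study's methods. The study describes its rats as young adults, and no age of a single rat or group is given here.

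Gadd45 proteins are small stress-induced proteins without enzyme activity of their own. They bind the kinase Map3k4 upstream of the p38 and JNK kinases, the replication clamp Pcna, the inhibitor p21 and the mitotic kinase Cdk1 with cyclin B, and they have been linked to removal of methyl groups from DNA. Gadd45a is known in muscle as a gene that is induced by loss of innervation, by fasting and by disuse. CDK inhibitors stop cells in G1. The Cip/Kip proteins p21 (Cdkn1a), p27 (Cdkn1b) and p57 (Cdkn1c) bind whole cyclin-CDK complexes, whereas the INK4 proteins p15 (Cdkn2b) and p18 (Cdkn2c) bind Cdk4 and Cdk6 and keep cyclin D off them. In muscle, p21 and p57 also take part in the exit of myoblasts from the cycle when they differentiate. In whole muscle, RNA of these genes can come from the fibres, whose nuclei do not divide, or from the cells between them.

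The 250 bases upstream of the annotated start are shown for the 3 genes that passed the criteria for up-regulation and, beside Gadd45a, for its relatives Gadd45b and Gadd45g, which did not. Sequences were matched by symbol in a RefSeq table of promoters (rat build GRCr8) for 7 of the 8 genes. Cdkn1c had no entry. The annotated start is the outermost one and need not be the start used in muscle. Each sequence is written 5′ to 3′ on the strand of its gene and ends at the base before the start. Capitals mark an octamer (ATTTGCAT) and a CCAAT box in Gadd45a and Gadd45g, CCAAT and GC boxes (GGGCGG) in Gadd45b, a p53 half-site in Cdkn1a, and a cAMP response element (TGACGTCA) with GC boxes in Cdkn2b. Other matches, such as a GC box and a p53 half-site in Gadd45a, are not capitalised.
Gadd45a, chr4:97486800-97487049, minus strand: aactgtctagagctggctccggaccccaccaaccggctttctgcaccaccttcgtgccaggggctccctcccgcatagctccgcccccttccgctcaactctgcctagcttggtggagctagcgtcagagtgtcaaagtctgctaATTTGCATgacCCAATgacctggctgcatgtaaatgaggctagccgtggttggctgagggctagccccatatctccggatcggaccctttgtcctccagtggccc
Gadd45b, chr7:9430719-9430968, minus strand: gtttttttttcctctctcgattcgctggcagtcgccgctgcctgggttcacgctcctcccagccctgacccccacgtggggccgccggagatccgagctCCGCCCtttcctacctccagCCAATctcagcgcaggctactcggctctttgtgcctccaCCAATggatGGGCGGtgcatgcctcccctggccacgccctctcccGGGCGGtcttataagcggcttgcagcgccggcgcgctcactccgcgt
Gadd45g, chr17:13530352-13530601, minus strand: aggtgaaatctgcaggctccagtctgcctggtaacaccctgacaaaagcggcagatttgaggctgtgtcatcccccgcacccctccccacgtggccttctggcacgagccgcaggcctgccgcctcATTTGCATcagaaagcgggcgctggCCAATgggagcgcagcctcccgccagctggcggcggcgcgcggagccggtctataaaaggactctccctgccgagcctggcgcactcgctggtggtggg
Cdkn1a, chr20:7150682-7150931, plus strand: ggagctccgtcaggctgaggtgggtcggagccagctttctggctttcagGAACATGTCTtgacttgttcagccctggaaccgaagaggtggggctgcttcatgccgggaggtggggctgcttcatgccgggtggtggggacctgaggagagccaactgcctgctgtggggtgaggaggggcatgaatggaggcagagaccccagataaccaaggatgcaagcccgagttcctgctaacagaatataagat
Cdkn2b, chr5:109134856-109135105, minus strand: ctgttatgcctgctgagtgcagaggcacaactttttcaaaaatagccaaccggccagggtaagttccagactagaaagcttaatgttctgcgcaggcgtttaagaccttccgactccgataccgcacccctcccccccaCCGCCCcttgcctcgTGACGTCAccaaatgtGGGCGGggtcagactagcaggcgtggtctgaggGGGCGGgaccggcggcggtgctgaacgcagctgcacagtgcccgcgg

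The motifs were searched on both strands of all 33469 promoter windows of that length. The octamer was found in 1.56% of the windows, and it began 105 bases before the start in Gadd45a and 124 bases before it in Gadd45g. Both windows also hold a CCAAT box, at 94 and 99 bases before the start, a motif of 34.0% of all windows. Gadd45b has no octamer in this window and has 2 CCAAT boxes and 3 GC boxes, the latter found in 30.5% of windows. The Gadd45a window holds 1 GC box too, 170 bases before the start, as do those of Cdkn1b and Cdkn2c, and Cdkn2b has 3. The Cdkn1a window holds a p53 half-site beginning 201 bases before the start. This half-site was found in 6.64% of windows, and the Gadd45a window (48 bases before the start) and the Cdkn2c window (11 bases) hold one too. The cAMP response element, in 1.59% of windows, was present in Cdkn2b alone among the 7 genes, 96 bases before the start. An E-box (CANNTG) was found in Gadd45b, Gadd45g, Cdkn1a, Cdkn2b and Cdkn2c and in 65.5% of all windows, and in Gadd45g 1 of its 3 matches overlaps the octamer. Its form CAGCTG, in 4007 of the windows, was found in Gadd45g and Cdkn2b. None of the 7 windows held the FoxO letters GTAAACA (3.21% of windows), and Gadd45g alone held TATAAA (12.9%). These matches describe letters and no binding was measured.

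The deposited values are log2 changes against control with adjusted p-values. The within-group SD, the standard error (SE), 95% intervals and the comparisons between durations were recovered from them, and signals of single rats are not analysed here. Because signal levels are not given, only changes and not levels are compared between genes. A call, up- or down-regulated, required both a change of 2.0-fold or more and an adjusted p below 0.05, and durations were held to differ at an adjusted p below 0.05. The median within-group SD of all probe sets was 0.20 log2 units. Gadd45a varied more among rats of a group than 99.4% of probe sets (SD 0.78), and the SDs of Cdkn1a (0.55) and Cdkn2b (0.50) were also high. Those of Cdkn1b and Cdkn1c were 0.22. Changes in whole muscle do not tell fewer cells of a type from less RNA per cell. None of the 8 probe sets is marked as cross-hybridising, but only 60% of the probes for Gadd45g lie in its best annotated transcript, and the probe set spans 81.2 kb.

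Gadd45a, Cdkn1a and Cdkn2b rose, and the other 5 genes stayed under 2-fold at every duration. At 0.25-4d 1 of the 8 genes was called, Gadd45a, where 0.305% of all probe sets were called up-regulated and 0.244% were called down-regulated. In the 5-8d and the 9-14d group Gadd45a, Cdkn1a and Cdkn2b were up-regulated, against 2.55% and 3.01% of all probe sets. No member was down-regulated, where 2.66% and 2.12% of all probe sets were. Without a fold minimum 1, 3 and 6 of the 8 genes had an adjusted p below 0.05, against 3.54%, 26.2% and 35.5% of all probe sets. At an unadjusted p below 0.05 there were 5 genes above and 0 below control at 0.25-4d, 3 and 1 at 5-8d, and 5 and 2 at 9-14d. The share of all probe sets at an unadjusted p below 0.05 is at least as large as the adjusted shares and is not given here. The same holds for the unadjusted counts of the gene lists below. The median log2 change of the 8 genes was 0.41, 0.18 and 0.60 at the 3 durations, with -0.01, -0.04 and -0.07 over all probe sets.

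**Figure D1:**
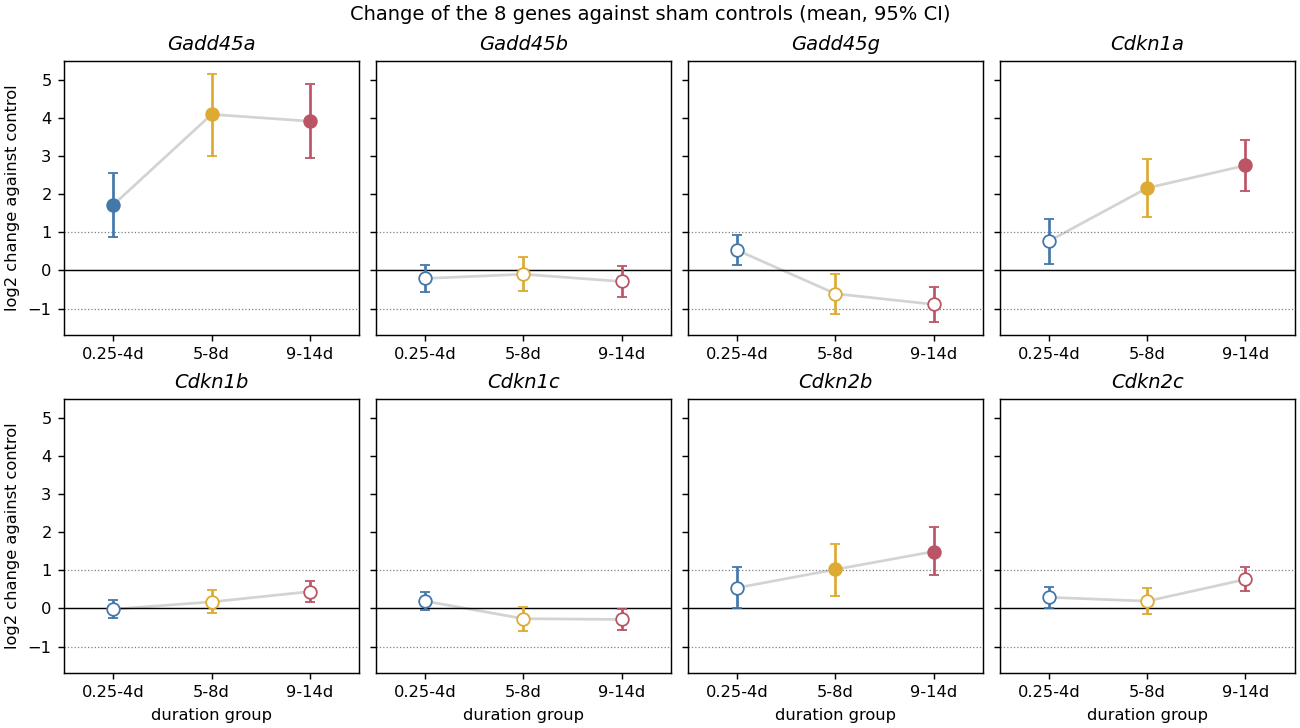
Log2 change against the sham controls (vertical axis) of the 8 genes at the 3 durations (horizontal axis). Points are group means, bars are 95% intervals, filled points passed the fold minimum and the adjusted p, dotted lines mark 2-fold and grey lines only join the means. Gadd45a stands near 4 at both later durations, Cdkn1a and Cdkn2b are higher at each later duration, and Gadd45g goes from 0.53 to -0.89.

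Gadd45a was the most strongly up-regulated of the 8 genes. Its probe set lies on chromosome 4 at 96649941 to 96652243 on the minus strand of build RGSC 3.4, and all 26 of its probes fall in the annotated transcript. At 0.25-4d Gadd45a was 3.28-fold above control (log2 1.72, SE 0.41, n = 13 rats, adjusted p = 0.0164), a call that an adjusted p threshold of 0.01 would not give. It reached 17.0-fold at 5-8d (log2 4.09, SE 0.53, n = 4, adjusted p = 1.49e-06 from limma). At 9-14d it was 15.1-fold above control (log2 3.91, SE 0.47, n = 6, adjusted p = 2.91e-07 from limma). The early change, with a 95% interval of 0.87 to 2.56, thus does not reach the later ones, whose intervals run from 3.01 to 5.16 and from 2.94 to 4.89. Ordered from the highest change, Gadd45a stood in place 17 of 26208 probe sets at 0.25-4d, 6 at 5-8d and 17 at 9-14d. The rise between 0.25-4d and 5-8d was 5.17-fold (log2 2.37, SE 0.45, adjusted p = 0.00025 from the recovered moderated test). Between 5-8d and 9-14d the difference was -0.17 (SE 0.51, adjusted p = 0.921), with an interval from -1.21 to 0.86, or 0.433- to 1.82-fold.

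Gadd45b and Gadd45g, which encode close relatives of Gadd45a, did not share its pattern. Gadd45b (chromosome 7, 10289073 to 10291102, minus strand) had log2 changes of -0.21 (SE 0.17), -0.10 (SE 0.22) and -0.29 (SE 0.20) at the 3 durations. None of them passed, with adjusted p of 0.607, 0.787 and 0.252 from limma. Its 95% intervals, which lie between -0.70 and 0.35 in all, leave out a 2-fold change at any duration. Gadd45g (chromosome 17, 19230893 to 19312089, minus strand) was 0.53 above control at 0.25-4d (SE 0.20, adjusted p = 0.141) and -0.61 at 5-8d (SE 0.25, adjusted p = 0.0734). At 9-14d it was 1.86 times lower than control (log2 -0.89, SE 0.23, adjusted p = 0.0032 from limma), which passes the adjusted p without the fold minimum. Gadd45g lies on both sides of control, and its fall from 0.25-4d passed at both later durations. Gadd45g was 2.22 times lower at 5-8d than at 0.25-4d (log2 -1.15, SE 0.21, adjusted p = 0.000221 from the recovered moderated test). At 9-14d it was 2.69 times lower than at 0.25-4d (log2 -1.43, SE 0.19, adjusted p = 6.66e-07 from the same test). Between the later durations the difference was -0.28 (SE 0.24, adjusted p = 0.665).

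Among the Cip/Kip inhibitors only Cdkn1a was called. Cdkn1a, the gene of p21, lies at 7376325 to 7386778 on the plus strand of chromosome 20. At 0.25-4d its log2 change was 0.77 (SE 0.29, 95% interval 0.18 to 1.36), which did not pass (adjusted p = 0.149 from limma). It was up-regulated 4.46-fold at 5-8d (log2 2.16, SE 0.37, adjusted p = 6.83e-05 from limma) and 6.73-fold at 9-14d (log2 2.75, SE 0.33, adjusted p = 2.82e-07 from limma). Cdkn1a ranked 195, 60 and 41 from the highest of all probe sets at the successive durations. Its rise over the 0.25-4d rats was 2.62-fold at 5-8d (log2 1.39, SE 0.31, adjusted p = 0.00166 from the recovered moderated test). At 9-14d the rise was 3.95-fold (log2 1.98, SE 0.27, adjusted p = 1.54e-06 from the same test). The step from 5-8d to 9-14d, 0.59 (SE 0.35, adjusted p = 0.494), did not pass.

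Cdkn1b and Cdkn1c changed little between 0.25-4d and 9-14d, the former upward and the latter downward. Cdkn1b, the gene of p27 (chromosome 4, 171841696 to 171846572, plus strand), had log2 changes of -0.02 (SE 0.12), 0.17 (SE 0.15) and 0.44 (SE 0.13). The last of these, 1.36-fold, had an adjusted p of 0.0109 from limma, and the first and second had 0.967 and 0.452. Cdkn1b was also higher at 9-14d than at 0.25-4d by 0.46 (SE 0.11, adjusted p = 0.0016 from the recovered moderated test). Cdkn1c, the gene of p57 (chromosome 1, 203835215 to 203837844, minus strand), gave 0.19 (SE 0.12), -0.27 (SE 0.15) and -0.29 (SE 0.13) against control. None passed, with adjusted p of 0.438, 0.185 and 0.0941 from limma. It was lower than at 0.25-4d by about the same amount at both later durations. By the recovered moderated test the differences were -0.46 at 5-8d (SE 0.13, adjusted p = 0.0078) and -0.47 at 9-14d (SE 0.11, adjusted p = 0.00122). Every difference of these 2 genes was under 2-fold.

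Of the INK4 inhibitors, Cdkn2b was up-regulated and Cdkn2c rose less. Cdkn2b, the gene of p15, lies at 108940095 to 108945331 on the minus strand of chromosome 5. Its log2 change was 0.54 at 0.25-4d (SE 0.26, adjusted p = 0.297), 1.02 at 5-8d (SE 0.34, adjusted p = 0.0245) and 1.49 at 9-14d (SE 0.30, adjusted p = 0.000356 from limma). The 2.02-fold change at 5-8d only just exceeds the fold minimum, with a 95% interval of 0.33 to 1.70, while the last is 2.82-fold; a threshold of 0.01 would not give the call at 5-8d. Cdkn2b was higher at 9-14d than at 0.25-4d by 0.95 (SE 0.25, adjusted p = 0.00367), and neither shorter step passed (0.48 each, adjusted p = 0.265 and 0.556). Cdkn2c, the gene of p18, lies on the same strand of chromosome 5 at 131012519 to 131017679. Its changes of 0.29 (SE 0.13) and 0.19 (SE 0.17) did not pass (adjusted p = 0.266 and 0.471). At 9-14d Cdkn2c was 1.70-fold above control (log2 0.76, SE 0.16, adjusted p = 0.00036 from limma), with an interval of 0.45 to 1.08 that includes 2-fold. It was 0.47 higher there than at 0.25-4d (SE 0.13, adjusted p = 0.0048 from the recovered moderated test). Against 5-8d it was higher by 0.58 (SE 0.17), with an interval of 0.24 to 0.92 but an adjusted p of 0.105.

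The differences between durations that passed all involved the 0.25-4d group. Between 0.25-4d and 5-8d 4 genes differed, with Gadd45a and Cdkn1a higher and Gadd45g and Cdkn1c lower at 5-8d, where 21.3% of all probe sets differed. Between 5-8d and 9-14d 0 of the 8 differed (1, Cdkn2c, at an unadjusted p below 0.05), and 0.408% of all probe sets did. Between 0.25-4d and 9-14d 7 differed, 5 of them higher and 2 lower at 9-14d, against 35.5% of all probe sets. Gadd45b is the gene that did not. These comparisons share rats with one another, and the 0.25-4d group holds rats from 6 hours to 4 days, so its mean and its SD cover both early and later days.

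**Figure D2:**
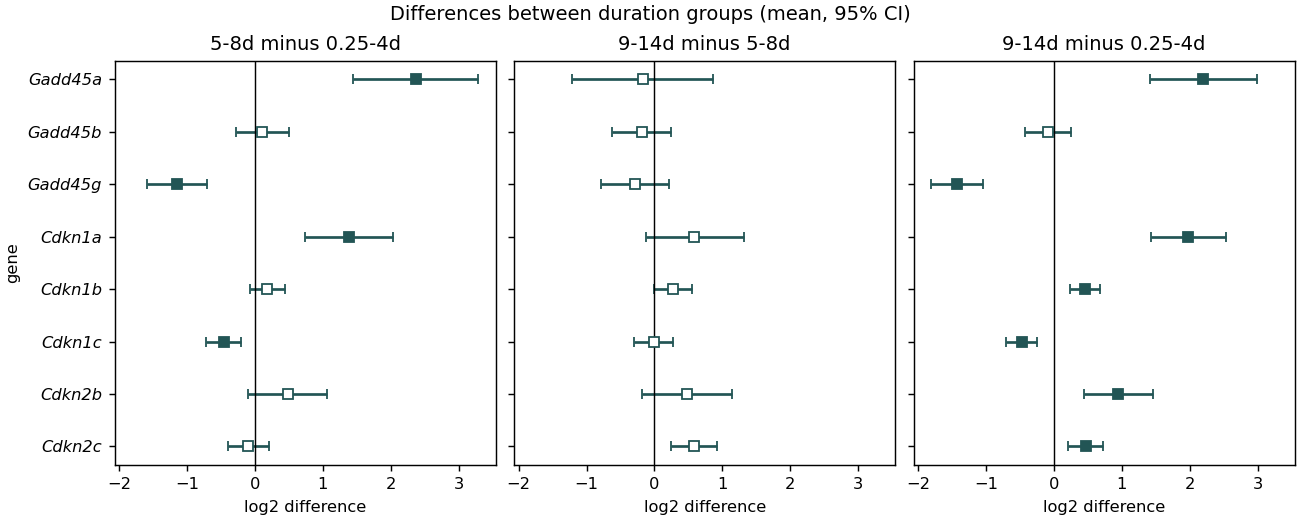
Differences in log2 expression (horizontal axis) of the 8 genes (rows) between pairs of duration groups, with 95% intervals. Filled squares have an adjusted p below 0.05. Filled squares are seen for 4 genes in the left panel, for none in the middle panel and for 7 in the right panel, with Gadd45g and Cdkn1c on the negative side.

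**Figure D3:**
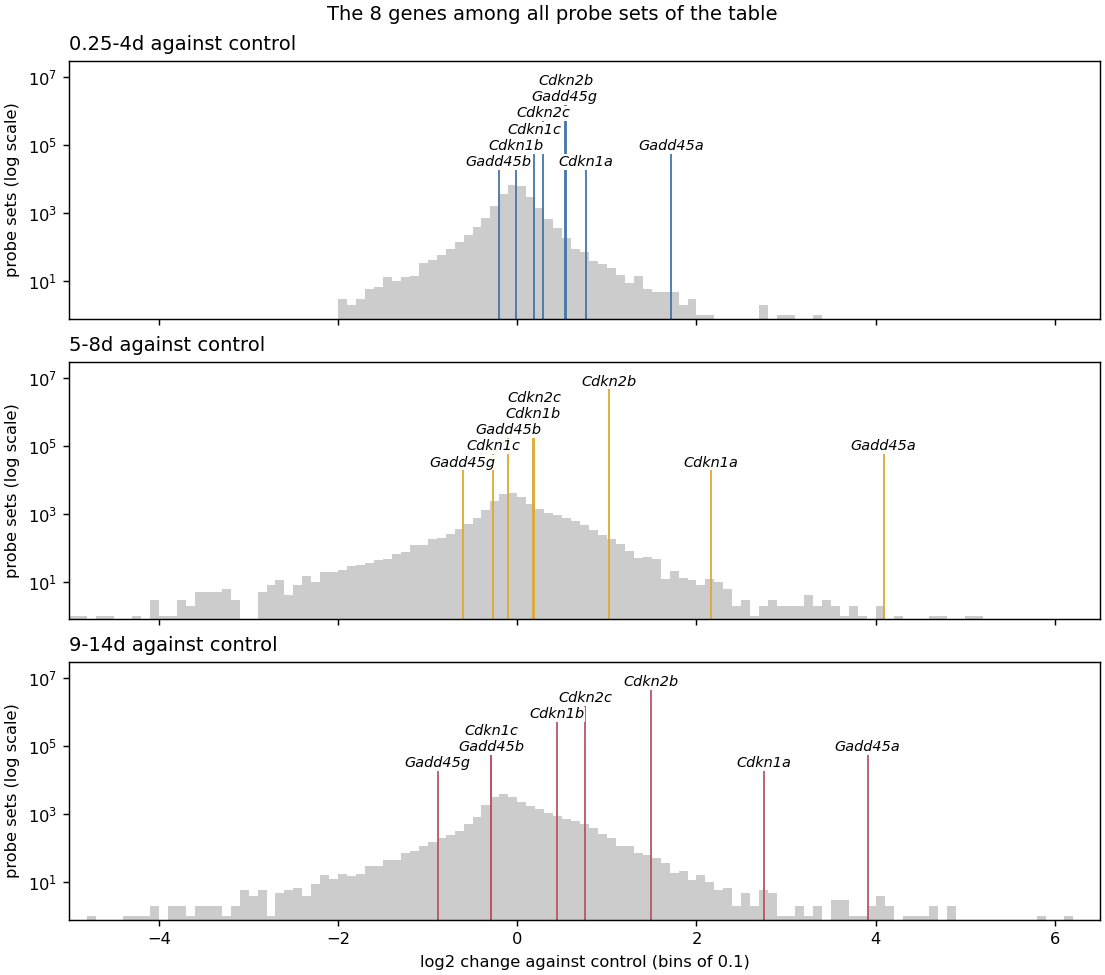
Number of probe sets (vertical axis, log scale) in bins of log2 change against control (horizontal axis, bins of 0.1), with coloured lines at the values of the 8 genes; line height only makes room for the names. Gadd45a lies at the far right of all 3 panels, Cdkn1a moves out from 0.77 to 2.75, and Gadd45b stays within the bulk of the probe sets.

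For each up-regulated member the 3 probe sets with the closest course were listed, by Euclidean distance over the 3 log2 changes. Nearest to Gadd45a were Ctsl1, the lysosomal protease cathepsin L (distance 0.83; log2 1.70, 3.46 and 3.37), and Myog, the myogenic factor myogenin (0.84; 1.01, 3.68 and 3.71). Ppp1r14c, an inhibitor of protein phosphatase, came next (1.06; 0.67, 4.28 and 4.02). Nearest to Cdkn1a were Serf1 (0.51), the sulphate transporter Slc26a2 (0.57) and the fatty acid ligase Acsl4 (0.60). For Cdkn2b the distances were shorter, 0.20 for the microtubule-associated protein Map7 and 0.21 for both the amino acid transporter Slc7a5 and the ubiquitin hydrolase Uchl1. The distances rest on 3 group means that share the controls.

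Cyclins, CDKs and other genes of the cell cycle were taken as lists. Of 10 genes of G1 and S phase, 0 were called at 0.25-4d (4 at an unadjusted p below 0.05). At the later durations 3 and 2 were up-regulated, against 2.55% and 3.01% of all probe sets. Cdc25a, a phosphatase that activates Cdk2, rose by 1.37 at 5-8d (SE 0.24) and 1.23 at 9-14d (SE 0.21). Pcna, the replication clamp that both p21 and Gadd45a bind, rose by 1.30 (SE 0.21) and 1.02 (SE 0.19), and cyclin E1 (Ccne1) by 1.01 at 5-8d (SE 0.17), with 0.48 at 9-14d, under the fold minimum. The list's median was -0.08, 0.32 and 0.31. Of the 8 probe sets for 7 genes of mitosis none was called at any duration (1, 2 and 2 at an unadjusted p below 0.05), and their median was 0.00, -0.14 and 0.14. Neither of 2 further genes named as CDK inhibitors, Cdkn2a and Cdkn3, was called (0, 1 and 0 at an unadjusted p below 0.05). Cdkn3 gave -0.34, -0.66 and 0.10. Its value at 5-8d had an adjusted p of 0.0437 from limma and was under the fold minimum. Cdkn2a, whose gene neighbours Cdkn2b, gave 0.12, 0.15 and 0.06 (adjusted p = 0.489, 0.305 and 0.599 from limma).

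Downstream of the CDKs, the retinoblastoma and E2F family had 1 gene called in each direction. E2f5, a repressor E2F, rose by 1.50 at 5-8d (SE 0.22) and 1.51 at 9-14d (SE 0.20), while a further probe set of the gene gave 0.74 and 0.70, under the fold minimum. E2f6, also a repressor, fell by 1.06 at 5-8d (SE 0.23) and by 1.20 at 9-14d (SE 0.20). The other 9 of the 12 probe sets were not called, and the list's median stayed between -0.02 and 0.05. At 5-8d and 9-14d 2.55% and 3.01% of all probe sets were up-regulated, and 2.66% and 2.12% were down-regulated.

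Of the genes linked to Gadd45 proteins and MAP kinases, Map2k6 stood apart. Map2k6, a kinase that activates p38, fell by 3.24 at 5-8d (SE 0.49, adjusted p = 1.58e-05) and by 2.82 at 9-14d (SE 0.45, adjusted p = 1.62e-05 from limma). At 0.25-4d its value was -1.26 (SE 0.39, adjusted p = 0.0671). No other of the 13 probe sets for 12 genes was called. Without the fold minimum 1, 5 and 6 of the 13 were lower than control and 0 were higher, where 3.54%, 26.2% and 35.5% of all probe sets passed in either direction. The median was -0.03, -0.26 and -0.32, with -0.01, -0.04 and -0.07 over all probe sets.

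Of 19 genes known as targets of p53, the transcription factor best known for inducing Cdkn1a, 1, 2 and 1 were up-regulated at the successive durations, and 1 was down-regulated at 5-8d. Among all probe sets 0.305%, 2.55% and 3.01% were up-regulated, and 2.66% were down-regulated at 5-8d. Tp53inp1, a stress-induced p53 cofactor, was called at every duration (log2 1.36, 2.18 and 1.97, with SEs of 0.17, 0.22 and 0.20). The antiproliferative gene Btg2 rose by 1.45 at 5-8d (SE 0.37), and Sesn1, a sestrin, fell by 1.17 there (SE 0.30). The other 16 genes were not called, and the list's median was 0.12, 0.11 and 0.15, with -0.01, -0.04 and -0.07 over all probe sets.

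Of 13 probe sets for muscle regulators linked to Gadd45a or Cdkn1a, 2 were up-regulated at each duration, and 1 was down-regulated at 9-14d. The shares of all probe sets were 0.305%, 2.55% and 3.01% for up-regulation, and 2.12% for down-regulation at 9-14d. Hdac4, a histone deacetylase of denervated muscle, rose at all durations (1.29, 1.52 and 1.46, with SEs of 0.24, 0.30 and 0.27). Myog had 1.01 at 0.25-4d, which did not pass (adjusted p = 0.187), and rose by 3.68 at 5-8d (SE 0.52) and 3.71 at 9-14d (SE 0.47). Foxo1, a factor of the atrophy programme, rose by 1.62 at 0.25-4d (SE 0.25, adjusted p = 0.000315) and gave 0.24 and -0.15 later (adjusted p = 0.644 and 0.698 from limma). Atf4, known as an inducer of Gadd45a in fasted muscle, gave 0.23 at 0.25-4d and -0.03 at 5-8d (adjusted p = 0.55 and 0.95) and fell by 1.03 at 9-14d (SE 0.20, adjusted p = 0.000197 from limma). The part of these regulators in the changes of Gadd45a and Cdkn1a was not tested. The remaining 9 of the 13 probe sets were not called, and the list's median was 0.23, 0.00 and -0.10.

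**Figure D4:**
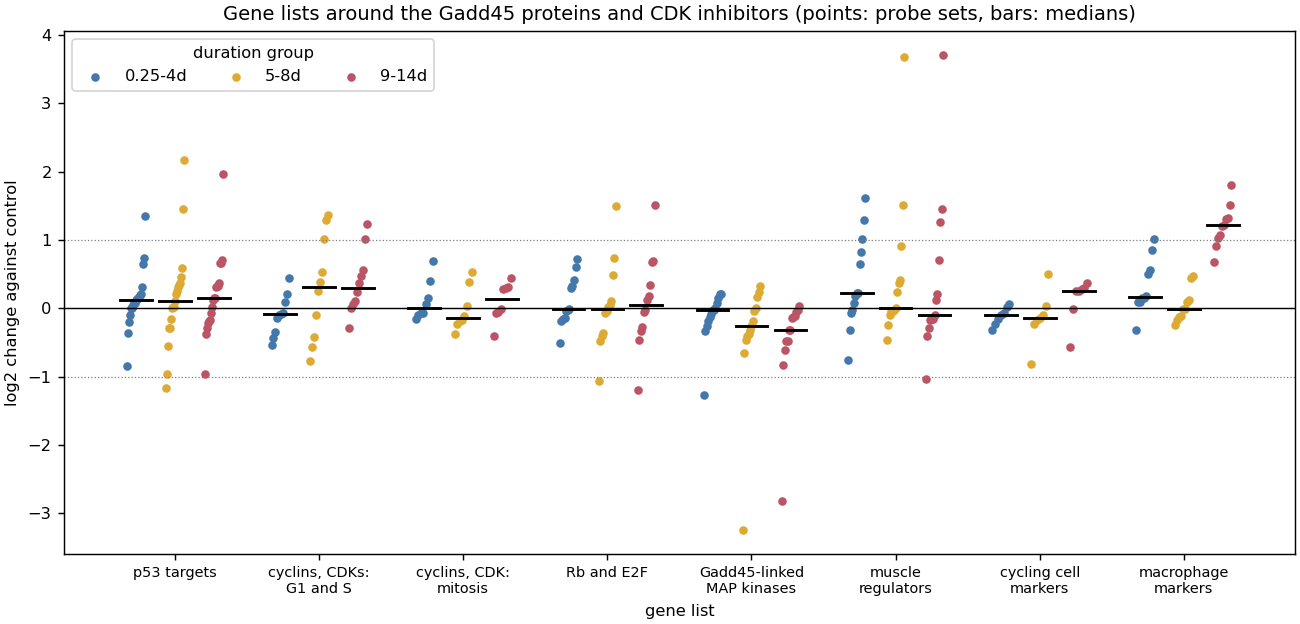
Log2 change against control (vertical axis) of the probe sets in 8 gene lists (horizontal axis) at the 3 durations (colours). Points are probe sets, black bars list medians and dotted lines mark 2-fold. Most points lie within 2-fold; Myog reaches 3.71, Map2k6 goes down to -3.24, and the macrophage markers stand apart at 9-14d with a median of 1.22.

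Markers of some cell types other than fibres were called too, not all at the same durations. Of 10 macrophage markers, 1 was called at 0.25-4d (Cd163), 0 at 5-8d (0 also at an unadjusted p below 0.05) and 8 at 9-14d, with medians of 0.17, -0.01 and 1.22. All of these calls were up-regulation, against 0.305%, 2.55% and 3.01% of all probe sets. The highest at 9-14d was the probe set shared by the lysozyme genes Lyz2 and Lyc2, at 1.80 (SE 0.40), followed by the lysosomal glycoprotein Cd68 at 1.51 (SE 0.45). The lowest of the 8 were the receptor gene Csf1r at 1.07 (SE 0.27) and Emr1 at 1.03 (SE 0.31). Gadd45a, Cdkn1a and Cdkn2b were up-regulated at 5-8d, where no macrophage marker was called. The values of Cdkn1a, Cdkn1b, Cdkn2b and Cdkn2c were highest at 9-14d together with these markers. Between 5-8d and 9-14d, however, 0 of the 8 genes and 1 of the 10 markers differed at an adjusted p below 0.05, against 0.408% of all probe sets. The part of macrophages in the changes of the 8 genes was not tested. Of 6 fibroblast markers 4 were down-regulated at 5-8d and 2 at 9-14d, against 2.66% and 2.12% of all probe sets. Largest at both durations was the fall of the collagen gene Col1a1 (-3.23, SE 0.66, and -2.18, SE 0.59). The collagen gene Col1a2 was also called at both (-2.33, SE 0.50, and -1.47, SE 0.45), and Col3a1 (-1.31, SE 0.34) and the proteoglycan lumican (Lum, -2.00, SE 0.47) at 5-8d. None of 7 cycling cell markers was called (0, 1 and 2 at an unadjusted p below 0.05), and Mki67 gave -0.31, -0.17 and 0.25. Of 4 satellite cell markers only Myf5 was called (1.52, SE 0.23, at 5-8d and 2.15, SE 0.21, at 9-14d). Without the fold minimum 1 was higher and 2 were lower at 5-8d, and 1 was higher and 3 were lower at 9-14d. Of all probe sets 26.2% and 35.5% passed there in either direction. Pax7 was among the lower ones at both, under 2-fold (-0.56 and -0.70). None of the 5 Schwann cell markers (0, 1 and 0 at an unadjusted p below 0.05), 4 endothelial markers (1, 3 and 3) or 3 adipocyte markers (1, 0 and 0) was called. Of the endothelial markers 3 were lower than control at an adjusted p below 0.05 at both later durations, each under 2-fold. Among 11 probe sets for fibre genes the one of Myh2 alone was down-regulated at both later durations (-3.44, SE 1.22, and -2.98, SE 1.10). The probe sets that Myh2 shares with Myh1, Myh3 or Myh4 were not called (at 9-14d -0.69, 0.11 and -0.54). Actn3 was down-regulated at 9-14d (-1.31, SE 0.23). Without the fold minimum 4 of the 11 were lower than control at 5-8d and 6 at 9-14d, and 0 were higher. The table gives changes and no signal levels, so summed marker levels and markers near 0 are not given. The parts of these cell types in the changes of the 8 genes were not tested.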

How the data were processed

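The arrays were processed by the authors, who per their methods summarised and normalised them by RMA, fitted 1 linear model in limma with 3 comparisons against the controls and adjusted p-values by Benjamini-Hochberg. MAS5 is also named in the submitters' processing notes, and the first line of the table calls the values lowess normalised ratios. The authors deposited log2 changes and adjusted p-values for these comparisons over 26208 probe sets. They are the authors' own comparisons and the only measurements used here. Which of the named normalisations made the values cannot be told from them. Signals of single arrays are not analysed here, so the number of rats (5, 13, 4 and 6) and the within-group SD limit the precision.

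The Benjamini-Hochberg adjustment was undone to give unadjusted p-values. These were turned into moderated statistics at 28.26 degrees of freedom (24 residual and 4.26 prior), the number at which the SD of a probe set came out alike from its 3 comparisons. The error bound of a member's SD was at most 0.00849%, and 0 calls changed when the adjusted p-values were computed again. SEs, 95% intervals and differences between durations followed from the SD and the numbers of rats, with Benjamini-Hochberg adjustment over all 26208 probe sets. All tests were two-sided. The code was tested on simulated data. Nothing in the labels ties rats to litters or dates. The p-values set each change against the spread between rats within groups, pooled over all groups. That spread includes differences in duration between rats of a group.

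The labels give groups and no rat was assigned its own duration. Per the series' design text the middle group ran to 9 days, per the sample labels to 8. Probe set positions come from the deposited annotation (build RGSC 3.4), and promoter windows those of RefSeq (GRCr8). The genes named are the 8 members, the genes of each list called in at least 1 comparison (where more than 4 were called, the 2 highest and 2 lowest at 9-14d) and the 3 closest probe sets of each called member. Pax7, Mki67, Cdkn2a, Cdkn3 and Cd163 were named outside this rule after their values were seen. The members and lists were chosen with earlier results of these data known. Alternatives were the fold minimum, the adjusted p threshold, the scope of the adjustment, centring, probe sets with a symbol, cross-hybridising probe sets and residual degrees of freedom. Python 3.11.15, numpy 2.4.6, scipy 1.17.1, pandas 2.3.3 and matplotlib 3.10.9 were used.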

Additional observations from a re-analysis of the deposited data

Results flagged for a closer look

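Of 24 differences between pairs of durations tested for the 8 genes, 11 passed an adjusted p below 0.05, in 7 genes. From 0.25-4d to 5-8d the log2 difference was 2.37 for Gadd45a, 1.39 for Cdkn1a, -1.15 for Gadd45g and -0.46 for Cdkn1c. From 0.25-4d to 9-14d it was 2.20 for Gadd45a, 1.98 for Cdkn1a, 0.95 for Cdkn2b, 0.47 for Cdkn2c, 0.46 for Cdkn1b, -0.47 for Cdkn1c and -1.43 for Gadd45g. These values drew attention because the effect of the same treatment, measured against the same controls, differed between durations by the test of the difference itself. Within the Gadd45 family Gadd45a and Gadd45g moved in opposite directions from 0.25-4d to both later durations, and Gadd45b gave 0.11 and -0.08. Single rats could not be looked at for values far from their group.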

How the results depend on the processing

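Of 288 values of single members under the alternatives, 277 kept their direction and their side of the threshold, 7 no longer passed, 3 newly passed and 1 changed sign. Only centring alters the log2 changes, so under the other alternatives no direction could change. At an adjusted p below 0.01, 0 members were called at 0.25-4d instead of 1 (Gadd45a, adjusted p = 0.0164 from limma), and Cdkn2b was lost at 5-8d (adjusted p = 0.0245). Without the fold minimum 6 members passed at 9-14d instead of 3, Gadd45g, Cdkn1b and Cdkn2c being added. With a 2-fold difference also asked for, 3 members differed between 0.25-4d and 9-14d instead of 7. Centred on the median of each comparison, the difference of Cdkn1c between 5-8d and 9-14d was 0.02 instead of -0.01 (adjusted p = 0.98), both near 0. The other 33 of 36 counts of members were within 1.5 times the reported ones. Over all probe sets, dropping the fold minimum gave 929, 6869 and 9295 calls instead of 144, 1366 and 1343, and an adjusted p below 0.01 gave 96 at 0.25-4d. For the differences between durations (5575, 107 and 9307), a 2-fold minimum gave 702, 55 and 869 and an adjusted p below 0.01 gave 3534, 8 and 5609. With 24 degrees of freedom 36 probe sets instead of 107 differed between the later durations. Centring moved the split of higher to lower between 0.25-4d and 9-14d from 4752 and 4555 to 5557 and 2569, and between the later durations from 80 and 27 to 133 and 23; no member other than Cdkn1c changed sign. No paired analysis was possible because the table holds group comparisons and no values of single rats, and for the same reason leaving out each rat in turn was not run. The 4 rats at 5-8d give the widest errors, so a p that missed the threshold there does not show equal expression.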

Other observations

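Genes linked to the removal of DNA methyl groups, a process in which Gadd45 proteins have been implicated, gave calls in both directions. Of 8 genes, 1 was called at 0.25-4d, 2 at 5-8d and 3 at 9-14d. At these durations 0.305%, 2.55% and 3.01% of all probe sets were called up-regulated, and 0.244%, 2.66% and 2.12% down-regulated. Mbd4, a DNA glycosylase acting at methylated sites, rose by 1.29 at 5-8d (SE 0.26) and 1.15 at 9-14d (SE 0.24). Tet1, a dioxygenase that oxidises 5-methylcytosine, fell by 1.28, 1.61 and 1.45 at the 3 durations, with SEs of 0.17, 0.21 and 0.19, and its relative Tet2 fell by 1.08 at 9-14d (SE 0.15). Median changes of the list were 0.13, 0.04 and 0.07, close to those of all probe sets (-0.01, -0.04 and -0.07). DNA methylation was not measured in these samples.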
